A study of Mus musculus with 9 samples.

Results

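The ERK feedback genes are a set of 10 transcripts that are induced by, or that restrain, the kinase ERK: the phosphatase genes Dusp4, Dusp5, Dusp6 and Dusp7, the inhibitor genes Spry2, Spry4 and Spred2, and the ERK-responsive genes Etv4, Etv5 and Phlda1. They were taken by symbol, with no threshold on their values, and each symbol matched 1 row of a count table of 46095 gene symbols. The set was chosen with earlier results of these data known. The study itself had picked out Dusp7 from this RNA-seq together with ChIP-seq, so the Dusp7 results below are not independent evidence for that choice. All 10 passed the filter on low counts, as did 14593 genes in all. The libraries came from intestinal epithelial cells (IECs) that EDTA had released from the colon, from 4 mice labelled Smad4-knockout (Smad4 Vil-KO in the study) and 5 labelled Smad4-knockout;Setd2-knockout (Smad4 Vil-KO;Setd2 Vil-KO), called double-knockout here. Both genotypes carried floxed Smad4 alleles and Villin-Cre on a C57BL/6j background, and the second group carried floxed Setd2 alleles as well. Villin drives Cre in intestinal epithelium, so other cells of the colon keep the genes. Every mouse had received azoxymethane (AOM, 10 mg/kg) at 8 weeks of age and 1 course of 2% dextran sodium sulphate (DSS), which injures the colonic lining, and cells were taken at 10 days. Littermates served as controls, and neither wild-type nor Setd2-only mice were analysed here, so that each comparison sets double-knockout against Smad4-knockout mice under AOM/DSS. Setd2 deletion cannot be told apart there from alleles linked to the floxed Setd2 locus or, in some libraries, from sex-linked expression.

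ERK is the last kinase of the RAS, RAF and MEK cascade, which carries growth factor signals from the cell surface to the nucleus and supports the renewal of the gut epithelium. Its activity depends on phosphorylation of a threonine and a tyrosine, and dual-specificity phosphatases (DUSPs) remove both phosphates. Many DUSP, Sprouty (Spry) and Spred genes are themselves transcribed when ERK is active, which closes a negative feedback loop, and their transcripts are often read as a measure of ERK output. Setd2 encodes the methyltransferase that makes H3K36me3, a histone mark of transcribed gene bodies. The study names Dusp7 as a link between Setd2 and ERK, and the comparison here asks how Dusp7 and the other genes of the loop differed between the genotypes.

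Total counts were 12487129 to 17120202 per library, so that after TMM normalization 1 count equalled 0.0594 to 0.0794 CPM, the unit of the levels below, which scales counts to a common library total. Setd2 was at 113 ± 9.45 CPM (SD, n = 4) in Smad4-knockout IECs and lower, at 66.1 ± 14.7 CPM (SD, n = 5), in double-knockout IECs (log2 fold change -0.77, edgeR adjusted p = 0.00756), whereas Smad4, deleted in both groups, was at 64.2 ± 19.0 and 70.3 ± 34.4 CPM and gives no check of the labels. All 8 epithelial markers were tested and none was called, although Vil1 was higher in every double-knockout library (edgeR adjusted p = 0.200), and their summed level was 10802 to 12171 CPM in Smad4-knockout libraries and 10464 to 12362 CPM in double-knockout libraries. The 7 leukocyte markers summed to 52.6 to 146 and 49.2 to 94.3 CPM, or 52.6 to 60.4 CPM in Smad4-knockout libraries without replicate 4, and the 7 markers of fibroblasts and smooth muscle, 4 of them tested, to 11.3 to 27.9 and 19.3 to 58.0 CPM, with no member of either list called. The 4 colonocyte markers, none called, summed to 3303 to 4837 and 1795 to 5720 CPM. Of 6 stem and cycling cell markers, which summed to 777 to 940.3 and 811 to 1195 CPM, Olfm4 was the single call and was higher, at 1.48 ± 1.09 against 53.1 ± 43.0 CPM (edgeR adjusted p = 0.00568). Of 6 genes linked to stress and cell isolation, which summed to 231 to 344 and 183 to 268 CPM, 4 were tested, all 4 had negative log2 fold changes and Jun was called lower. Of 8 small intestinal enterocyte markers, 6 were tested and 4 were higher in double-knockout IECs (Sis, Fabp6, Slc10a2 and Enpep), and the list summed to 224 to 288 CPM against 472 to 933 CPM without overlap and with no gene at 0 throughout. The part of these markers in the values below was not tested. In 3 libraries, double-knockout replicates 1, 2 and 5, the Y-linked Ddx3y, Kdm5d, Uty and Eif2s3y summed to 4907, 4745 and 3857 counts, against 28 or fewer in each other library. Every Smad4-knockout library was without them, so that over all 9 libraries genotype and sex-linked expression cannot be told apart in those 3. For some genes, results are also given among the 6 libraries with low Y-linked counts. These are bulk samples, in which fewer cells of a type and less RNA per cell cannot be told apart.

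Dusp7 was the member with the largest difference and fell by 54.8%, and Etv5 was the only other member that passed the test. Of the 10 members, 2 were lower and 0 higher in double-knockout IECs at an adjusted p under 0.05 (quasi-likelihood test of edgeR, adjusted over every gene tested). Of all tested genes, 13.3% were called, 6.54% lower and 6.76% higher. At an unadjusted p under 0.05, 4 members were lower (Dusp7, Etv5, Spry4 and Etv4) and 0 higher, against 15.3% of all genes in each direction. The log2 fold change was negative for 8 of the 10, against 50% of all genes, and its median was -0.20, whereas the median over all genes was -0.0006. In 3 members (Dusp7, Spry4 and Etv5) every double-knockout library lay below every Smad4-knockout library, which held for 8.87% of all genes, and in 0 members every double-knockout library lay above, which held for 8.34%.

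**Figure D1:**
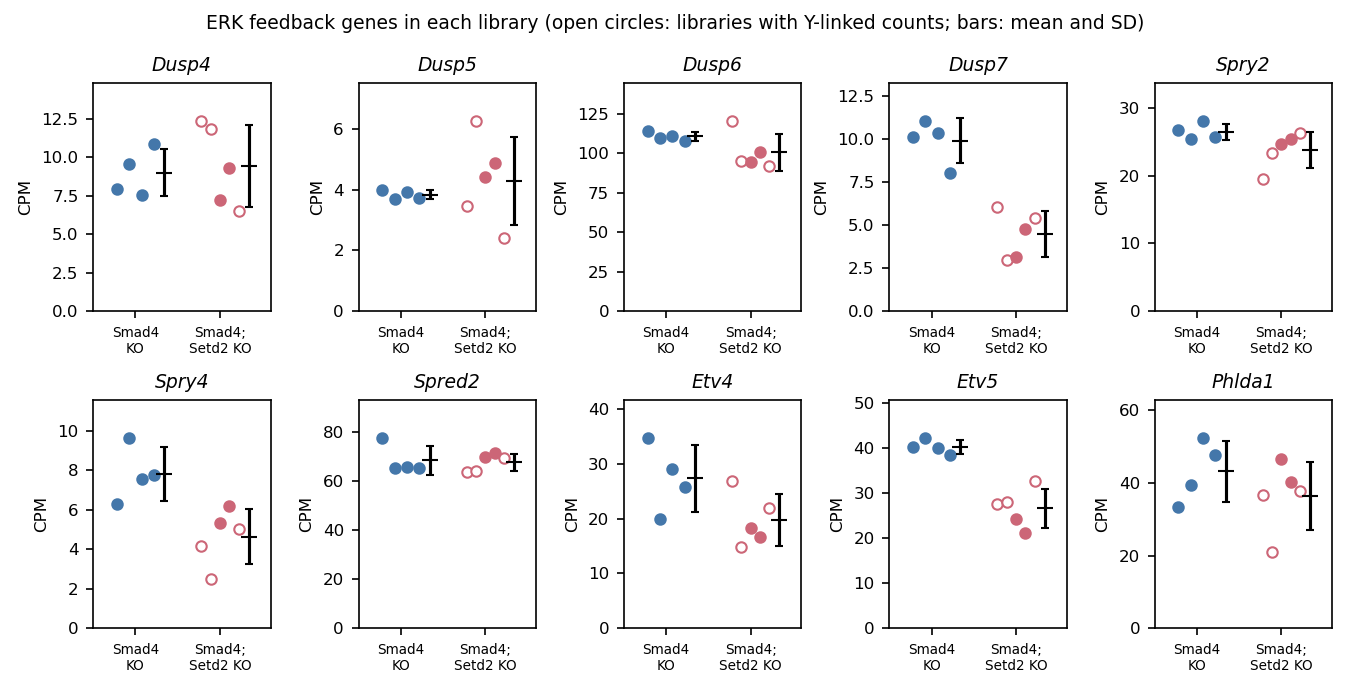
Normalized level (CPM, linear axes from 0) of each ERK feedback gene in each library, with the Smad4-knockout libraries in blue and the double-knockout libraries in red; open circles are the 3 libraries with high Y-linked counts, and black bars are the mean and SD. The points of the genotypes are apart for Dusp7, Spry4 and Etv5 and overlap for the other 7 genes.

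Dusp7 encodes a cytoplasmic phosphatase that acts on ERK. The gene lies on chromosome 9 at 106368560 to 106375724 (RefSeq, GRCm38.p6) and has 3 exons with 1266 coding bases in its longest coding transcript (GENCODE M21). The stretch just before its start is shown together with that of Etv5, because these are the members whose transcripts fell. Both are RefSeq promoter sequences of GRCm38.p6, chr9:106368382-106368559 on the plus strand and chr16:22439720-22439820 on the minus strand, cut back to the bases that lie outside the gene in both annotations, and capitals mark CpG dinucleotides.
Dusp7: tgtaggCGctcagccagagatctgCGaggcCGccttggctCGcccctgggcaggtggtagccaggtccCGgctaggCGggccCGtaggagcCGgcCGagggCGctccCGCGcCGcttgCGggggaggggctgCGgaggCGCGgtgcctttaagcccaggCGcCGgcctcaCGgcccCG
Etv5: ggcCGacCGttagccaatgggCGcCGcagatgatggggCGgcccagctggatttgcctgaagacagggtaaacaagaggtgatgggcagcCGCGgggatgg
Both promoters are rich in CpG. Over the table's full window of 250 bases, part of which lies inside the gene in 1 of the annotations, Dusp7 had 77.2% G and C with 34 CpG and Etv5 had 71.2% with 27, whereas the medians over 27025 promoters were 52.0% and 6. Promoters were listed for 6 of the 10 members (Dusp5, Dusp6, Dusp7, Etv5, Spred2 and Spry2), which held 56.0% to 77.2% G and C and 12 to 34 CpG. The letters of AP-1 (TGANTCA) and CRE (TGACGTCA) motifs, the ETS motif CCGGAAG and the octamers TGAATGAA and TGAATGGA preferred by Cic, an HMG-box repressor of Etv4 and Etv5, and the CArG box bound by serum response factor, were searched on both strands. They occur in 6.87%, 1.62%, 7.05%, 1.09%, 1.01% and 1.40% of all promoters of the same length. Among the 6 members, the CArG box in Dusp5 was the single motif found, so that none of these letters lay in the Dusp7 or Etv5 window.

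Among the phosphatases, Dusp7 was at 10.1, 11.1, 10.4 and 8.02 CPM in Smad4-knockout replicates 1 to 4 and at 6.02, 2.99, 3.15, 4.80 and 5.43 CPM in double-knockout replicates 1 to 5, from 101 to 186 and from 42 to 94 counts. All 5 double-knockout libraries were below the lowest Smad4-knockout library, and replicates 2 and 3 were the lowest. The means were 9.90 ± 1.31 CPM (SD, n = 4) and 4.48 ± 1.36 CPM (SD, n = 5), and Dusp7 was 2.21-fold lower (log2 fold change -1.14, standard error 0.23, 95% interval -1.65 to -0.64, edgeR adjusted p = 0.00996). Dusp7 was called in all 18 alternative fits, which gave log2 fold changes from -1.32 to -1.03, and among the libraries with low Y-linked counts the value was -1.32 (edgeR adjusted p = 0.00491).

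Dusp6 encodes the phosphatase closest in kind to that of Dusp7, also cytoplasmic and selective for ERK, and its transcript is a widely used readout of ERK activity. It was at 114, 110.0, 111 and 108 CPM in Smad4-knockout replicates and at 121, 95.1, 94.5, 101 and 92.2 CPM in double-knockout replicates. The Smad4-knockout libraries were close together, and double-knockout replicate 1 lay above them while the other 4 lay below. The log2 fold change was -0.14 with a 95% interval of -0.33 to 0.05 (edgeR adjusted p = 0.309), an interval that does not reach the estimate for Dusp7.

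Dusp4 and Dusp5 encode the nuclear phosphatases of the set. Dusp4 was at 7.96, 9.57, 7.55 and 10.9 CPM in Smad4-knockout replicates and at 12.4, 11.9, 7.20, 9.28 and 6.51 CPM in double-knockout replicates, with both the highest and the lowest values in the second genotype (log2 fold change 0.08, 95% interval -0.40 to 0.55, edgeR adjusted p = 0.843). Dusp5 was at 3.98, 3.68, 3.93 and 3.73 CPM and at 3.46, 6.26, 4.40, 4.88 and 2.40 CPM. Its groups overlapped too, with double-knockout replicate 5 at 31 counts and replicate 2 at 88 (log2 fold change 0.16, 95% interval -0.41 to 0.73, edgeR adjusted p = 0.709). The direction of neither gene held in every fit.

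How much of the phosphatase pool Dusp7 supplied was taken within each library, as its percentage of the summed counts of Dusp4, Dusp5, Dusp6 and Dusp7, so that scaling between libraries does not enter. The share was 7.45%, 8.23%, 7.81% and 6.14% in Smad4-knockout replicates 1 to 4. It was 4.23%, 2.57%, 2.88%, 4.01% and 5.09% in double-knockout replicates 1 to 5. No library of one genotype reached the range of the other, although the 95% Wilson intervals of the nearest pair overlapped (5.08% to 7.41% in Smad4-knockout replicate 4 and 4.05% to 6.39% in double-knockout replicate 5), and these intervals cover counting error only. The mean share fell from 7.41% ± 0.901 (SD, n = 4) to 3.76% ± 1.03 (SD, n = 5), a difference of -3.65 percentage points (two-sided exact permutation test over libraries, p = 0.00794, the smallest p that this design allows). Counted per kb of exon, the share was 6.48% ± 0.796 and 3.27% ± 0.906, and within the 10 MAP kinase phosphatase genes measured it was 4.71% ± 0.722 and 2.26% ± 0.698, each with the same exact p of 0.00794. All of these shares use the same Dusp7 counts, so they restate its lower level within a library and are not independent evidence of it.

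**Figure D2:**
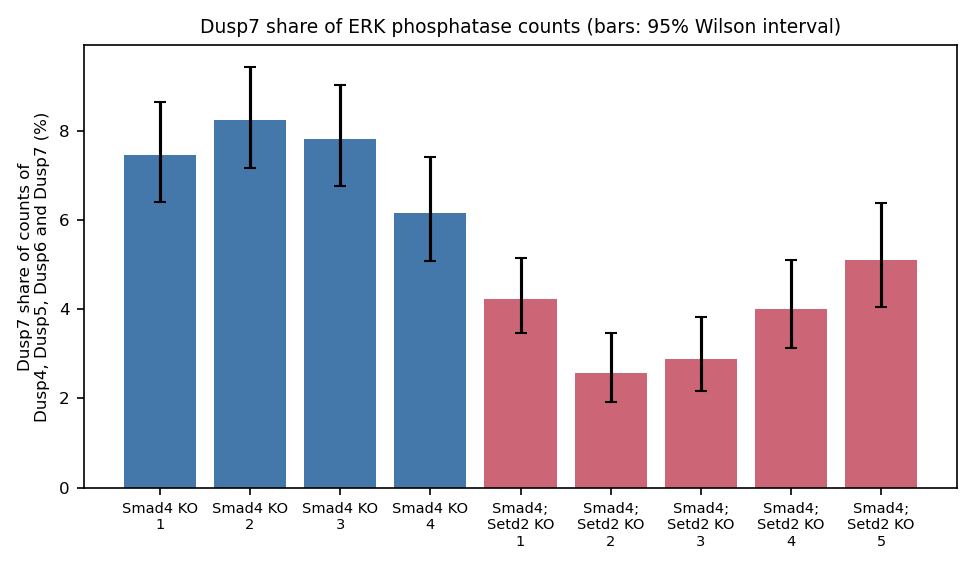
Counts of Dusp7 as a percentage of the summed counts of Dusp4, Dusp5, Dusp6 and Dusp7 in each library, with the axis from 0 and bars for the 95% Wilson interval (counting error only). The 4 Smad4-knockout libraries (blue) lie at 6.14% to 8.23% and the 5 double-knockout libraries (red) at 2.57% to 5.09%.

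Dusp6 made up most of the pool in both genotypes, 81.9% to 83.8% of the counts in Smad4-knockout libraries and 81.8% to 86.5% in double-knockout libraries. The 4 phosphatases together summed to 133 ± 2.37 CPM (SD, n = 4) and 119 ± 14.2 CPM (SD, n = 5). Without Dusp7 the sums were 124 ± 1.66 and 114 ± 13.5 CPM, and the genotypes overlapped for both sums. The lower Dusp7 thus stood beside a pool that Dusp6 dominated in every library. Per kb of exon, the mean level of Dusp7 came eighth of the 10 in Smad4-knockout IECs at 3.08 ± 0.408 CPM per kb and ninth in double-knockout IECs at 1.39 ± 0.423 CPM per kb. Dusp6 was the highest in both (39.6 ± 0.920 and 36.0 ± 4.14 CPM per kb), followed by Phlda1, Spred2, Spry2, Etv4, Etv5 and Dusp4 in both. In Smad4-knockout IECs the libraries of Dusp7 overlapped those of its upper neighbour Dusp4 (2.50 to 3.44 against 2.76 to 3.97 CPM per kb) and lay above those of Spry4 (1.32 to 2.02 CPM per kb). In double-knockout IECs, Dusp7 spanned 0.930 to 1.88 CPM per kb and overlapped both Dusp5 (0.972 to 2.53 CPM per kb) and Spry4 (0.524 to 1.31 CPM per kb).

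The inhibitors act upstream of ERK: Sprouty proteins restrain signalling from receptor tyrosine kinases to RAS and RAF, and Spred2 restrains the activation of RAF. Spry4 was at 6.29, 9.63, 7.55 and 7.78 CPM in Smad4-knockout replicates and at 4.17, 2.49, 5.31, 6.21 and 5.04 CPM in double-knockout replicates. The genotypes did not overlap, but the highest double-knockout library (79 counts) was close to the lowest Smad4-knockout library (98 counts). The log2 fold change was -0.75 (standard error 0.25, 95% interval -1.30 to -0.21), which did not pass the test (edgeR adjusted p = 0.0683). Among the libraries with low Y-linked counts it was -0.44 (edgeR adjusted p = 0.174), and DESeq2 called it (adjusted p = 0.0261).

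Spry2 was at 26.8, 25.5, 28.1 and 25.7 CPM in Smad4-knockout replicates and at 19.5, 23.3, 24.7, 25.4 and 26.3 CPM in double-knockout replicates. The ranges overlapped, with 4 of 5 libraries of the second genotype below the lowest of the first, and the log2 fold change was -0.15 (95% interval -0.38 to 0.07, edgeR adjusted p = 0.336). Spred2 showed the narrowest interval of the 10 members. It was at 77.6, 65.5, 65.9 and 65.6 CPM and at 63.6, 64.3, 69.9, 71.6 and 69.4 CPM, so that the second genotype lay within the span of the first but for its lowest 2 libraries, and the log2 fold change was -0.02 (95% interval -0.20 to 0.16, edgeR adjusted p = 0.897).

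Etv4 and Etv5 encode PEA3-type ETS transcription factors that are induced by ERK signalling, and both are used as readouts of it. Etv5 was at 40.2, 42.2, 40.1 and 38.4 CPM in Smad4-knockout replicates and at 27.6, 28.0, 24.2, 21.1 and 32.6 CPM in double-knockout replicates. The Smad4-knockout libraries were within a few CPM of each other, and every library of the other genotype was lower. The means were 40.2 ± 1.54 CPM (SD, n = 4) and 26.7 ± 4.35 CPM (SD, n = 5), and Etv5 was 1.51-fold lower (log2 fold change -0.59, standard error 0.12, 95% interval -0.85 to -0.33, edgeR adjusted p = 0.0102). Etv5 was called in all 18 alternative fits (-0.83 to -0.51), and at -0.82 among the libraries with low Y-linked counts (edgeR adjusted p = 0.000927).

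Etv4 was at 34.6, 19.97, 29.0 and 25.7 CPM in Smad4-knockout replicates and at 26.9, 14.9, 18.3, 16.7 and 21.9 CPM in double-knockout replicates. The genotypes overlapped, and the log2 fold change of -0.47 (95% interval -0.90 to -0.04) did not pass the test (edgeR adjusted p = 0.133). For Etv4 it was -0.64 (edgeR adjusted p = 0.0515) among the libraries with low Y-linked counts. Phlda1, which encodes a pleckstrin homology domain protein and is a target of ERK signalling, was at 33.4, 39.3, 52.2 and 47.7 CPM and at 36.6, 21.0, 46.4, 40.3 and 37.6 CPM. Only double-knockout replicate 2 lay outside the Smad4-knockout range (log2 fold change -0.25, 95% interval -0.70 to 0.20, edgeR adjusted p = 0.441). Among the libraries with low Y-linked counts its value was 0.01.

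**Figure D3:**
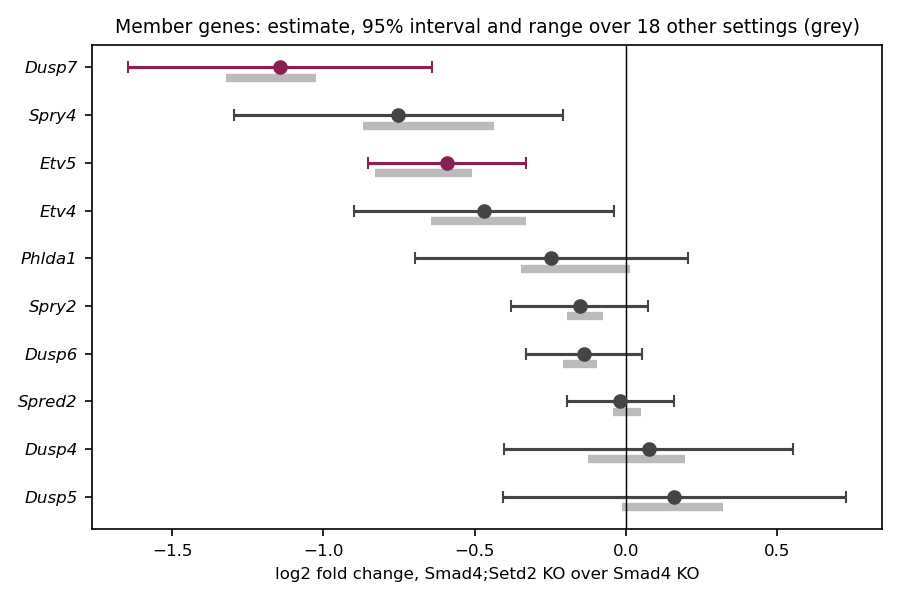
Log2 fold change of each ERK feedback gene, double-knockout over Smad4-knockout, with its 95% interval (points and lines; purple where the edgeR adjusted p was under 0.05); grey bars span the estimates of the 18 alternative fits. Dusp7 at -1.14 and Etv5 at -0.59 are the called genes, the interval of Spry4 is -1.30 to -0.21, and the grey bars of Dusp4, Dusp5, Spred2 and Phlda1 cross 0.

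The level of Dusp7 relative to the other members was described with the log2 ratio of Dusp7 counts to those of each other gene in the same library, a comparison added after the data were seen. In a two-sided exact permutation test over libraries, with adjustment over the 9 ratios, the log2 ratio was lower in double-knockout IECs to Dusp6 (difference -1.05, adjusted p = 0.0286), Spred2 (difference -1.18, adjusted p = 0.0286) and Spry2 (difference -1.03, adjusted p = 0.0286). The same adjusted p of 0.0286 from the exact test was reached for Phlda1 (difference -0.92) and Etv4 (difference -0.72), and for Dusp4 it was 0.0357 (difference -1.23). The ratios to Dusp5 (difference -1.28, exact test, adjusted p = 0.0510), Etv5 (difference -0.58, adjusted p = 0.0625) and Spry4 (difference -0.39, adjusted p = 0.238) did not pass. All 9 ratios share the Dusp7 counts and were chosen with its lower level known, so they restate that difference on a scale without normalization and are not independent evidence of it.

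The libraries were then used to ask whether Dusp7 and the other members varied together between mice of 1 genotype. Since the Dusp7 levels of the genotypes are apart, the genotype mean was taken off each gene (log2 CPM, prior count 2) and no uncentred correlation was tested. Across the 9 libraries, Pearson's r with Dusp7 was highest for Dusp6 (r = 0.57, exact permutation within genotype, p = 0.223, adjusted over 9 relations p = 0.668) and Etv4 (r = 0.53, exact p = 0.178, adjusted p = 0.668). Spearman's rho was 0.37 (exact p = 0.419) and 0.40 (exact p = 0.331) for the same genes. The lowest was Dusp5 (r = -0.67, exact p = 0.177, adjusted p = 0.668; rho = -0.77, exact p = 0.103). None of the 9 relations had an adjusted or an unadjusted exact p under 0.05, by r or by rho, and r was positive for 6 of 9. Without double-knockout replicate 5 the highest r was 0.87, and 1 relation had an unadjusted exact p under 0.05 and 0 an adjusted one. For the remaining genes r was 0.41 with Spry4 (exact p = 0.453), 0.26 with Etv5 (exact p = 0.628), 0.24 with Phlda1 (exact p = 0.732), 0.04 with Spred2 (exact p = 0.938), -0.09 with Dusp4 (exact p = 0.816) and -0.21 with Spry2 (exact p = 0.797), and every rho among them lay between -0.17 and 0.30 with an exact p of at least 0.499. Without the 2 libraries farthest from the median, double-knockout replicates 2 and 3, r was 0.43 for Dusp6, 0.26 for Etv4, -0.27 for Dusp5, 0.50 for Etv5 and -0.23 for Spry4. It also turned negative for Phlda1 (-0.39) and Spred2 (-0.16), so the positive r with these 3 genes rested on those libraries. Over all 9 libraries rho was already negative for Spred2 (-0.17) and Phlda1 (-0.02).

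**Figure D4:**
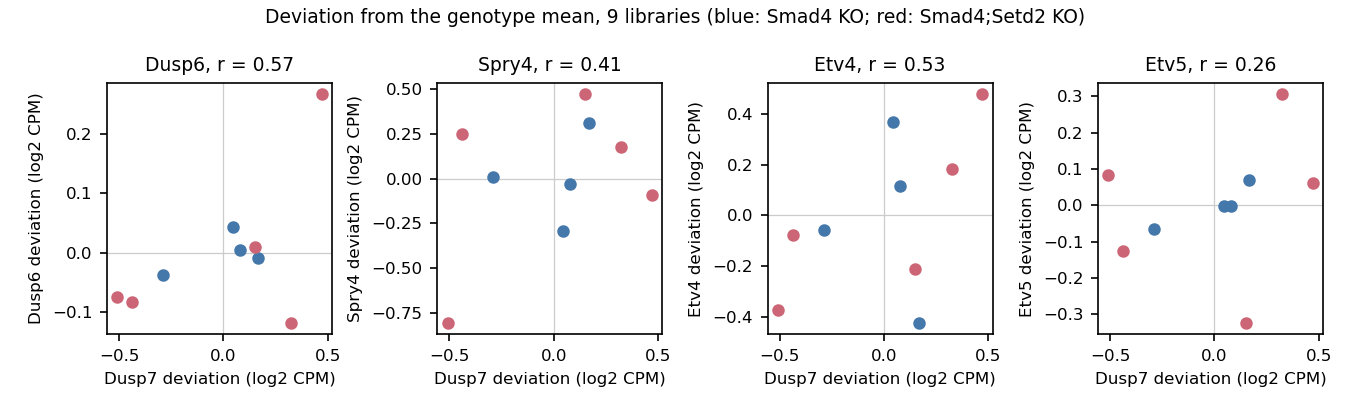
Deviation of Dusp7 from its genotype mean (horizontal, log2 CPM) against that of Dusp6, Spry4, Etv4 and Etv5 (vertical, log2 CPM, scales differ) in the 9 libraries, with Smad4-knockout in blue and double-knockout in red. Pearson's r was 0.57, 0.41, 0.53 and 0.26 and none had an exact p under 0.05.

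The rest of the pathway was read from lists compiled by hand. None of the 6 other MAP kinase phosphatase genes tested was called (Dusp1, Dusp2, Dusp8, Dusp9, Dusp10 and Dusp16), with a median log2 fold change of 0.24. Of all tested genes 13.3% were called, so 0 of 6 says little about this list. The number called higher in the list moved from 0 in 1 alternative fit, and the number called lower did not move. Dusp16, which encodes a phosphatase that prefers JNK and p38, was the most abundant at 46.0 ± 4.28 and 44.9 ± 7.001 CPM. Of 8 other feedback inhibitor genes, 7 were tested and 0 were called, with a median of 0.22, beside the same 13.3% of all genes. With DESeq2 and with limma-voom 1 of them was called higher, and among the libraries with low Y-linked counts 1 higher and 1 lower. Spred1, which is related to Spred2 and was singled out after its values were seen, was higher in every double-knockout library, at 56.2 ± 3.32 against 65.4 ± 4.02 CPM (log2 fold change 0.22, edgeR adjusted p = 0.0851). The most abundant was Lrig1, which encodes a negative regulator of ERBB receptors, at 204 ± 15.04 and 183 ± 13.4 CPM (log2 fold change -0.15, edgeR adjusted p = 0.222).

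Of the 20 genes of the cascade from adaptors to ERK and its kinases, all tested, 2 were higher and 1 lower, with a median of -0.01, and 13.3% of all genes were called. Mapk3, which encodes the kinase ERK1, was the most abundant at 359 ± 20.4 and 326 ± 26.2 CPM (log2 fold change -0.14, edgeR adjusted p = 0.280). Rps6ka2, a kinase activated by ERK, rose from 0.812 ± 0.140 to 1.72 ± 0.220 CPM (edgeR adjusted p = 0.0212) with at most 26 counts in a library, and Lamtor3, a scaffold of MEK and ERK, rose from 29.3 ± 2.37 to 36.4 ± 1.89 CPM (edgeR adjusted p = 0.0356). Araf, a RAF kinase, fell from 96.6 ± 4.84 to 81.2 ± 4.08 CPM (edgeR adjusted p = 0.0388). These were weak calls: of 18 alternative fits, Araf was called in 6, Lamtor3 in 9 and Rps6ka2 in 11.

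Of 16 other ERK-responsive genes, 15 were tested, 2 were higher and 1 lower, with a median of -0.11, where 13.3% of all genes were called. Epha2, an ephrin receptor, was at 13.9, 16.5, 18.5 and 9.84 CPM in Smad4-knockout replicates and at 64.1, 42.0, 21.7, 32.2 and 25.0 CPM in double-knockout replicates. Every library of the second genotype was higher (log2 fold change 1.33, standard error 0.31, edgeR adjusted p = 0.0196), but the call was lost without Smad4-knockout replicate 1 or 4 and with a term for Y-linked counts (log2 fold change 0.87, edgeR adjusted p = 0.137). Etv1, the third PEA3-type gene, rose while Etv5 fell, but at 0.735 ± 0.283 against 1.77 ± 0.489 CPM (log2 fold change 1.26, edgeR adjusted p = 0.0327), and it was called in 8 of 17 alternative fits. The AP-1 gene Jun, which is also among the stress and isolation genes above, fell from 98.2 ± 7.45 to 70.5 ± 11.6 CPM (log2 fold change -0.48, edgeR adjusted p = 0.0246), a call kept in 12 of 18 alternative fits and lost without Smad4-knockout replicate 1, 3 or 4 or double-knockout replicate 4. Ccnd1, which encodes cyclin D1, was the most abundant at 150 ± 35.5 and 177 ± 46.2 CPM (log2 fold change 0.23, edgeR adjusted p = 0.467), and among the libraries with low Y-linked counts it was called higher (log2 fold change 0.54, edgeR adjusted p = 0.0483).

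Cic represses Etv4 and Etv5 until ERK relieves it. It was the single call, lower, among the 4 genes of ETS-family repression (median log2 fold change -0.06), where 6.54% of all genes were called lower. It was at 94.3, 88.5, 90.5 and 91.1 CPM in Smad4-knockout replicates and at 77.2, 72.2, 66.2, 73.7 and 71.9 CPM in double-knockout replicates. The genotypes did not overlap, as held in this direction for 8.87% of all genes. The log2 fold change was -0.33 (standard error 0.07, edgeR adjusted p = 0.0112), a call kept in 17 of 18 alternative fits. Etv3, the most abundant of that list, was at 102 ± 10.6 and 103 ± 12.1 CPM.

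Dusp7 lies 4.16 Mb from Setd2 on the same chromosome, with 85 tested genes between them. Of the 10 tested genes on each side of Dusp7, 7 were lower and 2 higher, where 6.54% of all genes were called lower and 6.76% higher. The log2 fold change was negative in 16 of the 20, against 50% of all genes, and its median was -0.35. Over the 759 tested genes of chromosome 9, 64 were lower and 44 higher. The next tested gene towards Setd2 was Rpl29, a gene of the large ribosomal subunit. It was at 209, 207, 215 and 194 CPM in Smad4-knockout replicates and at 2.44, 1.21, 3.29, 3.22 and 2.79 CPM in double-knockout replicates, or 2443 to 3503 counts against 17 to 47. The log2 fold change was -6.32 (standard error 0.20, edgeR adjusted p = 2.94e-08). Ribosomal protein genes can share reads with pseudogene copies, and the part of this in the Rpl29 value was not tested. The next gene on the other side, Poc1a, was not called (log2 fold change -0.39, edgeR adjusted p = 0.0936), but it was called lower in 2 of 18 alternative fits, which spanned -0.60 to -0.29. Acy1 (-1.004), Abhd14a (-1.12), Tex264 (-0.64), Pik3r4 (-0.64), Parp3 (-0.48) and Atp2c1 (-0.32) were the other genes called lower, and Twf2 (0.62) and Alas1 (0.36) those called higher. Of these, Acy1, Tex264, Pik3r4 and Rpl29 were called in all 18 alternative fits, and Twf2 in 11 and Alas1 in 12. Abhd14a and Abhd14b overlap each other, so that their reads may not be told apart. The part of this position on the chromosome in the Dusp7 value was not tested, and alleles linked to the floxed Setd2 locus cannot be told apart from the Setd2 deletion in this design.

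**Figure D5:**
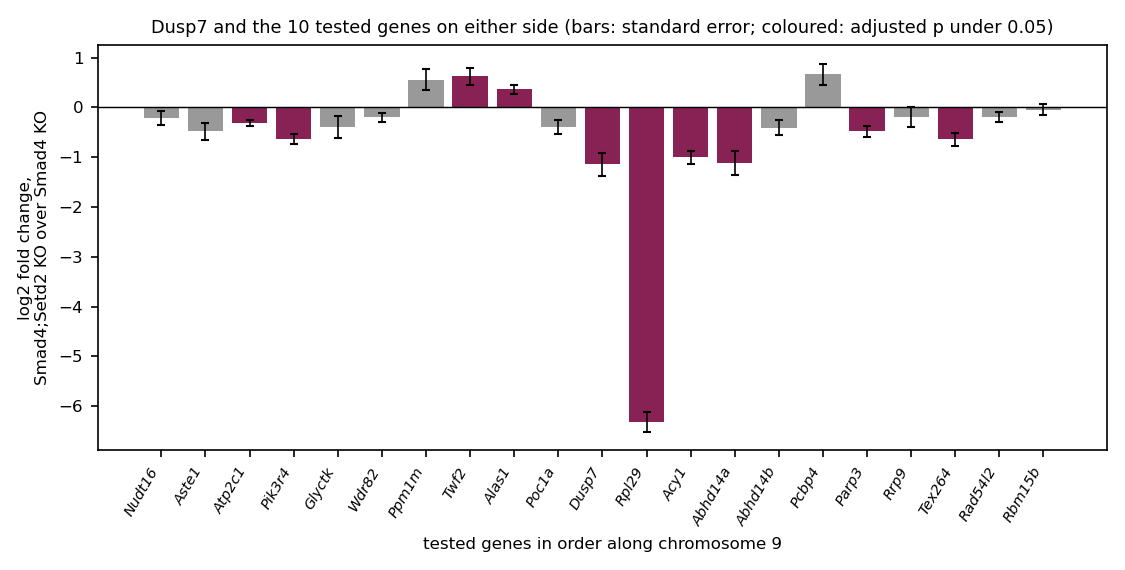
Log2 fold change, double-knockout over Smad4-knockout, of Dusp7 and the 10 tested genes on each side in their order along the chromosome, with the standard error; purple bars have an edgeR adjusted p under 0.05. Rpl29 reaches -6.32 beside Dusp7 at -1.14, and Twf2 and Alas1 are higher.

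The genes whose level followed that of Dusp7 most closely were found over the 9 libraries among the 9473 tested genes whose mean reached 10 CPM, by Pearson's r of log2 CPM, as a description. They were Exosc6 (r = 0.98), Dpagt1 (0.97), Trp53i11 (0.97), Khsrp (0.97) and Plod3 (0.97). In all 5 the genotypes did not overlap, with log2 fold changes of -0.62, -0.39, -0.30, -0.53 and -0.47, so the likeness holds the genotype difference as well as the spread between mice.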

How the data were processed

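The authors deposited whole-number counts per gene symbol for each of 9 libraries, without normalization. The submitters' processing notes name HISAT2 2.0 and mm10; the counting program, annotation and use of strand are not given in the sources used here, so overlapping, antisense and near-identical genes may share reads. Genotype and replicate came from the sample labels. 27 symbols turned into dates stayed in totals and tests. Total counts of 12487129 to 17120202 per library set the precision.

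In R 4.3.3, genes were kept with filterByExpr, scaled by TMM and tested with edgeR 4.0.16 (quasi-likelihood, Benjamini-Hochberg over 14593 genes). The biological coefficient of variation was 21.2%. Replicates are mice, and those of a genotype differed beyond sampling noise (chi-square of at least 9.95 per gene). Shares, ratios and correlations were tested by exact permutation (scipy 1.17.1). Exon lengths are from GENCODE M21 and promoters from RefSeq GRCm38.p6. Alternatives were DESeq2 1.42.0, limma 3.58.1 (voom with quality weights), DESeq2 size factors, library size alone, 2 other filters, each library left out, the replicate number as a block, a term for Y-linked counts, libraries with at most 1000 Y-linked counts, other thresholds, and other denominators or lengths for the share. The Dusp7 ratios were chosen after seeing the data.

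The members and lists were chosen with earlier results of these data known. Named are all members, Setd2 and Smad4, called genes and the most abundant gene of each pathway list, the 5 genes most like Dusp7, called or adjacent neighbours of Dusp7, and called markers where 5 or fewer. ChIP-seq, RT-qPCR, western blots and patient data were not analysed here. 1 enterocyte marker is not reported here and was left out of its list.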

Additional observations from a re-analysis of the deposited data

Results flagged for a closer look

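In 3 of the 80 groups of 4 or 5 libraries examined, 1 library stood apart from the others by Dixon's test at the 95% level, where chance marks about 1 group in 20. All 3 were Smad4-knockout replicate 1. Spred2 was at 77.6 CPM there and at 65.5 to 65.9 CPM in the other 3 libraries of the genotype. Smad4 was at 92.7 CPM there and at 54.3 to 55.4 CPM in the other 3. Etv1 was at 1.15 CPM there and at 0.535 to 0.635 CPM in the other 3. No flag fell on Dusp7 or Etv5.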

How the results depend on the processing

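Dusp7 and Etv5 were called lower in each of the 18 alternative fits, and no member was called higher in any. With each library left out in turn, Dusp7 lay between -1.28 and -1.03 and Etv5 between -0.66 and -0.51. At an unadjusted p under 0.05, 4 members were lower instead of 2. With DESeq2, Spry4 was called too. The replicate numbers do not pair the samples (same-number correlations of deviations -0.10, -0.10, 0.02 and 0.09); the replicate block gave 787 genes higher and 831 lower, against 986 and 955, and called Dusp7, Etv5 and Etv4 (Etv4 at -0.52, edgeR adjusted p = 0.0388), while Cic was no longer called (edgeR adjusted p = 0.0549). Over all genes, leaving out 1 library gave 455 to 1380 higher and 392 to 1316 lower, the fewest without Smad4-knockout replicate 3 and the most without double-knockout replicate 5, and the term for Y-linked counts gave 653 and 632.

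The Dusp7 share differed by -3.96 points among the libraries with low Y-linked counts (exact permutation test, p = 0.0667, the smallest this design allows) and by -4.07 to -3.35 with each library left out. With the denominator of Dusp6, Dusp7 and Dusp9 it differed by -3.95. No correlation with Dusp7 had an adjusted p under 0.05 in any of the settings run, but without double-knockout replicate 5 the highest r was 0.87, against 0.57, and 1 relation had an unadjusted exact p under 0.05; an uncentred one was not tested, since the Dusp7 levels of the genotypes do not overlap.

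Signs turned for genes that were not called. With limma-voom, Dusp4 was -0.029, Spred2 0.028, Smad4 -0.18 and Dusp16 0.053. With the term for Y-linked counts, Dusp4 was -0.12, Spred2 0.044, Smad4 -0.71, Dusp16 0.11 and Phlda1 0.0073, and among libraries with low Y-linked counts these were -0.12, 0.048, -0.70, 0.12 and 0.013. With library size alone Spred2 was 0.016, and with the replicate block Smad4 was -0.14. With each library left out, Dusp4 spanned -0.038 to 0.20, Dusp5 -0.014 to 0.32, Spred2 -0.044 to 0.051, Smad4 -0.11 to 0.37, Dusp16 -0.088 to 0.060 and Etv3 -0.035 to 0.079. The cause was not tested. Counts of 31 to 193 in Dusp4, Dusp5, Dusp7 and Spry4 limit what could be detected for them.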
